A study of Homo sapiens with 9 samples.

Results

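The genes described here are 50 mitosis and spindle genes, chosen by name for their established roles in entry into mitosis, spindle assembly, chromosome segregation and cytokinesis, out of 17492 genes in the table. The rule uses no measured value, though the genes were chosen with earlier results of these data known. RNA was sequenced from 9 libraries, in 3 groups of 3, of the human liver cancer line HCCLM3, a highly metastatic hepatocellular carcinoma line with the genotype label WT. The groups were DMSO, the vehicle (control), quercetin at 50 µM and quercetin at 100 µM. Quercetin is a plant flavonol, and no source used here gives the treatment time. All groups share the cell line and the WT label, and the labels do not say whether a group's replicates were grown as separate cultures. The p-values therefore cover the spread among these libraries alone, which may be technical.

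Entry into mitosis is driven by the kinase CDK1 bound to a B-type cyclin, which is held inactive by phosphorylation until CDC25 phosphatases remove the block. Kinesins and microtubule-binding proteins then build the spindle, kinetochores attach chromosomes to it, and the spindle checkpoint restrains the anaphase-promoting complex (a ubiquitin ligase) until every chromosome is attached. Most of these genes are transcribed late in the cell cycle. They are controlled by the DREAM and MuvB complexes, which bind a short element called the CHR. The CCAAT-binding factor NF-Y and the activators B-MYB and FOXM1 also act on them. Because the genes are on only for part of the cycle, their RNA in a culture reflects how many cells are in or near division. In bulk RNA, a smaller share of dividing cells and less RNA per dividing cell cannot be told apart.

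The promoters of this group held the letters of both elements in a larger share than other promoters did. The RefSeq table (GRCh38.p14) held a window of 250 bases before to 50 bases after the start for 43 of the 50 genes; AURKA, BIRC5, BUB3, FOXM1, TPX2, TTK and UBE2C had none. TTTGAA or TTTAAA, the CHR letters searched on both strands, stood in 35 of 43 windows (81.4%), against 15.9% of 10525 windows of tested genes and 24.3% of all 27305 windows. CCAAT, the NF-Y letters, stood in 34 of 43 (79.1%), against 36.6% of the windows of tested genes. At least 2 CCAAT matches stood in 48.8% of the members' windows, against 13.8%, and both kinds of letters together stood in 28 (65.1%), against 6.48%. TTTAAA reads the same on both strands and was counted once per position, and 4 pairs of neighbouring matches in members overlapped. A match describes the letters in the window and is not a measured binding site.

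Stretches upstream of 5 genes are printed to show how these letters are laid out in genes that moved with quercetin. CDK1 and CCNB2, known CHR genes that rose at both doses, come first. DLGAP5 (higher at 50 µM), KIF20A (higher at 100 µM) and CDC25B (lower at both doses) were added after their values were seen. Capitals mark the CHR and NF-Y letters given above, on either strand, and each stretch is read 5′ to 3′ on the gene's strand.
CDK1, chr10:60778161-60778280, plus strand: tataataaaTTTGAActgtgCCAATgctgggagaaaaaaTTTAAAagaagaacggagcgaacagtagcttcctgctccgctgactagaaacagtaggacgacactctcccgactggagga
CCNB2, chr15:59105026-59105145, plus strand: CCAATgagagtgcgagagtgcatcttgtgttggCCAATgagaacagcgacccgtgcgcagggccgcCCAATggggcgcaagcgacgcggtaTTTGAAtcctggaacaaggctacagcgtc
DLGAP5, chr14:55191601-55191725, minus strand: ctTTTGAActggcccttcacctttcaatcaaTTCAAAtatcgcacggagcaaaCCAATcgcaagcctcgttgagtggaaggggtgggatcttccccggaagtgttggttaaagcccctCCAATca
KIF20A, chr5:138178992-138179111, plus strand: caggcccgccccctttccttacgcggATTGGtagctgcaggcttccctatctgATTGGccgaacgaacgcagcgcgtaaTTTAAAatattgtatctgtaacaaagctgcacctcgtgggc
CDC25B, chr20:3786771-3786890, plus strand: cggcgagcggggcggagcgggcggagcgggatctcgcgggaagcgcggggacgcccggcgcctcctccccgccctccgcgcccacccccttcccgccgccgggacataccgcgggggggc

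In CCNB2 the CHR letters began 29 bases upstream of the annotated start, with CCAAT at 54, 87 and 120 bases upstream, and further out lay TTTAAA at 193 and CCAAT at 244. In CDK1 both CHR matches lay farther from the start, at 161 and 131 bases upstream, with CCAAT at 150. In DLGAP5 they lay at 138 and 109 bases upstream and at 4 bases after the start, with CCAAT at 87 and 22. In KIF20A they began 41 bases upstream, with CCAAT on the opposite strand at 67 and 94 bases upstream. CDC25B, the 1 gene that fell, had none of these letters in its 300-base window. CDC25C, also a known CHR gene and not called at either dose, had none either. Only the first window listed for each gene was searched, so letters near another annotated start would be missed. Across the group, 37 of 57 CHR matches, in 31 genes, began no more than 60 bases upstream of the start or after it, with a median start of -30. Of 72 CCAAT matches, 53, in 31 genes, began 150 to 41 bases upstream, with a median of -73.5. Among members with a window, 12 of the 13 that rose at either dose held CHR letters (92.3%) and 23 of the other 30 did (76.7%). For CCAAT the counts were 9 of 13 and 25 of 30.

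**Figure D1:**
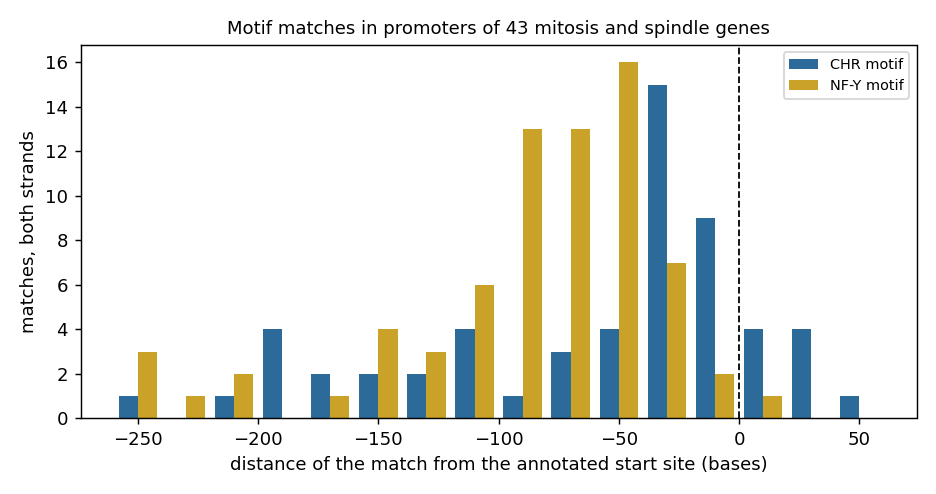
Matches of the CHR motif and the NF-Y motif in the promoter windows of 43 mitosis and spindle genes, counted in bins of 20 bases (y axis: matches, both strands; x axis: start of the match from the annotated transcription start in bases, negative upstream). The CHR matches pile up in the bins just before the start, and the NF-Y matches lie mostly between 150 and 41 bases before it.

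Library totals ran from 20061031 to 21599661 estimated counts, and all 50 genes passed the filter on low counts. Levels are CPM (counts scaled to a common library size, with TMM factors) unless TPM, which also divides by transcript length, is named. Of 12 hepatocyte markers, the epithelial keratins KRT8 (2923 to 4497 TPM) and KRT18 (1008 to 2203 TPM) were abundant and HNF4A lay between 9.58 and 21.2 TPM, while the secreted liver proteins APOA1 (0 to 0.5 TPM) and APOB (0.24 to 1.37 TPM) were near 0. ALB lay at 0.76 to 1.99 TPM in controls, 5.62 to 9.57 at 50 µM and 6.73 to 13.96 at 100 µM, and FGB at 2.74 to 6.33, 27.37 to 29.02 and 15.3 to 55.66 TPM. Both rose at both doses (log2 change 2.82 and 3.06 for ALB, 2.86 and 3.00 for FGB, edgeR adjusted p from 0.00237 to 0.0156). APOB fell at both (-2.31 and -1.875) and HNF4A at 50 µM (-0.75). Of 11 hepatocyte markers tested, 2 were called higher and 3 lower at 50 µM, where 5.28% and 6.31% of all genes were. At 100 µM 3 were higher and 2 lower, against 10.7% and 10.3%. PTPRC of immune cells stayed at or below 1.34 TPM, COL1A1 of fibroblasts at or below 0.26 TPM and VWF of endothelium at or below 0.22 TPM; CD68, LUM and PECAM1 were present. The summed markers of those other cell types lay at 57.8 to 87.2 TPM in controls, 66.2 to 73.6 at 50 µM and 63.7 to 109.6 at 100 µM for 8 fibroblast genes. They lay at 184.9 to 256.9, 164.0 to 180.7 and 253.9 to 377.5 TPM for 7 immune genes, nearly all of it CD68, and at 19.9 to 22.4, 10.29 to 12.15 and 10.97 to 14.21 TPM for 5 endothelial genes. The part of these other cell types in the results was not tested.

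In 1 control and 1 library at 100 µM the counts lay far from those of the same group, and several mitotic genes moved with them. The chi-square per gene was 28.2 and 28.1 for control replicate 1 with each other control, where the other controls gave 3.63. It was 85.0 and 87.2 for 100 µM replicate 3, where the others of that dose gave 5.10. These are the libraries called apart from here on. They were picked for their distance from their own group, so leaving them out narrows the spread by design. Tests that leave them out rest on fewer libraries and serve as description alone. In control replicate 1, 5 of the 50 genes lay more than 0.25 (log2) under the mean of the other controls and 5 lay more than 0.25 over it, from MKI67 at -0.68 to PTTG1 at 0.57. In 100 µM replicate 3, 13 lay that far under and 5 that far over, from KIF4A at -0.73 to PTTG1 at 0.47. How many of all genes lay that far was not counted, so these counts do not set the members apart. PLK1, KIF4A, MKI67 and FOXM1 were low in both of these libraries. The part of these libraries in the results was not tested beyond leaving them out.

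Mean control levels of the mitosis and spindle genes spanned a wide range. UBE2C had the highest mean in controls, at 308 TPM, followed by TPX2 at 258 TPM and CDK1 at 236 TPM, and KIF15 had the lowest, at 9.91 TPM. The summed TPM of the 50 genes was 4743, 4629 and 4614 in the controls, 5088, 4805 and 4877 at 50 µM, and 4920, 4745 and 4316 at 100 µM. All 3 sums at 50 µM lay above all 3 controls, while those at 100 µM lay on both sides, with replicate 3 lowest of all 9. The median coefficient of variation of a member was 5.7% in controls, 5.32% at 50 µM and 9.14% at 100 µM, against 7.51%, 4.5% and 11.6% over the 8605 genes at or above the lowest member's level. Single members reached 25.0% (MKI67 in controls) and 26.5% (KIF4A at 100 µM). The members are spread over the genome, with 8 on chromosome 1. KIF20A (chr5:138179112-138187723) and CDC25C (chr5:138285265-138338355) are near each other and do not overlap.

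**Figure D2:**
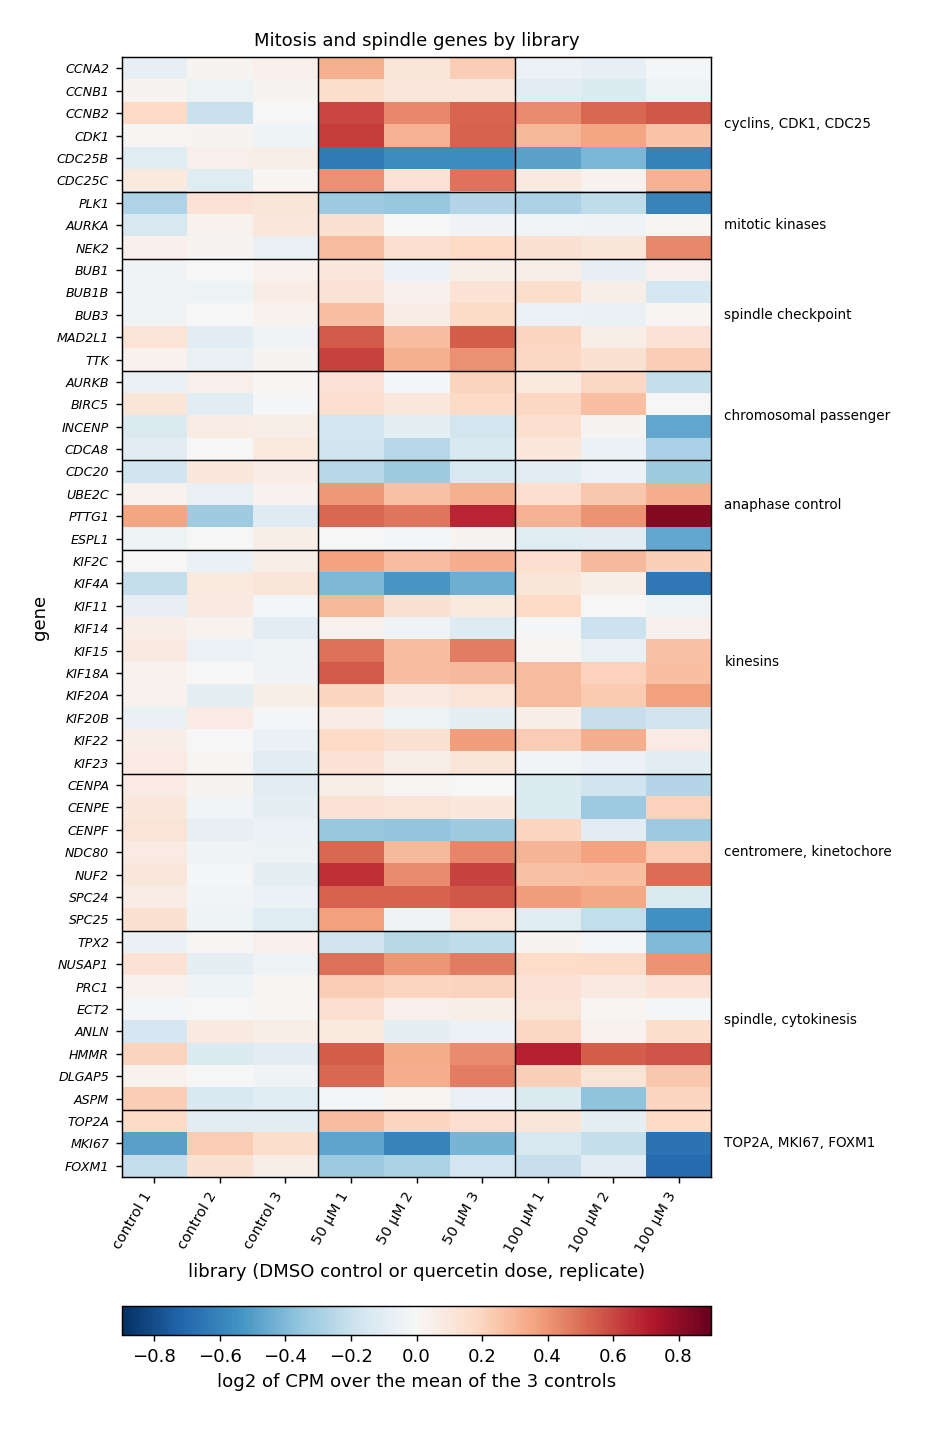
Level of each of the 50 genes in each of the 9 libraries, as log2 of CPM over the mean of the 3 controls (red higher, blue lower), with genes in rows grouped by role and libraries in columns. The 50 µM columns are red for CCNB2, CDK1, NUF2 and NDC80 and blue for CDC25B and KIF4A, and the column of 100 µM replicate 3 departs from the other 100 µM columns for KIF4A, MKI67 and SPC25.

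At 50 µM, 14 of the 50 genes rose, 1 fell and 35 did not pass the test (edgeR's quasi-likelihood test, Benjamini-Hochberg adjusted p under 0.05 over all 12832 genes tested). Over all genes tested, 5.28% were called higher and 6.31% lower, against 28% and 2% of the members. The genes that rose were CCNB2 and CDK1 of the mitotic kinase complex, UBE2C of anaphase control, MAD2L1 and TTK of the checkpoint, the kinetochore genes NDC80, NUF2 and SPC24, the kinesins KIF2C, KIF15 and KIF18A, and the spindle genes NUSAP1, HMMR and DLGAP5. The gene that fell was CDC25B. The log2 changes of all 50 ran from -0.59 to 0.57 with a median of 0.13, against a median of 0.0033 over all genes. In 25 genes all 3 libraries at 50 µM lay above all 3 controls and in 5 below, where 24.4% and 24.6% of all genes did so. The count of 14 rests on the full set of libraries. It was 0 without control replicate 2, without control replicate 3, without 50 µM replicate 1 or without 50 µM replicate 3, 6 without 50 µM replicate 2, and 21 without 100 µM replicate 3, whose spread enters the shared estimate. Calls over all genes fell as well, to between 0.362% and 0.562% higher in the settings with 0 and to 0.732% in the setting with 6. Without 100 µM replicate 3, 8 members were lower, and 18.4% and 18.2% of all genes were called higher and lower. The count of falls, 1 with all libraries, was 2 without 100 µM replicate 1 and 3 without control replicate 1. No called gene changed direction, and each of the 14 rises was called in 8 (KIF15) to 13 of 17 alternatives. At a q under 0.05 the authors' deposited table had 16 members higher and 6 lower, against 10.4% and 12% of its genes with a q. The 16 were the 14 above with PTTG1 and PRC1 (DESeq2 q of 0.00204 and 0.0114). The 6 were CDC25B, PLK1, KIF4A, CENPF, TPX2 and MKI67 (DESeq2 q from 5.83e-12 to 0.0306). DESeq2 as run here on all 9 libraries called 17 higher and 1 lower, against 9.41% and 10.6% of all genes. At an unadjusted p under 0.05 edgeR had 20 higher and 6 lower, against 15.2% and 17%.

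At 100 µM, 7 genes rose, 1 fell and 42 did not pass the test (edgeR, same threshold), where 10.7% of all genes were called higher and 10.3% lower. CCNB2, CDK1, UBE2C, NDC80, NUF2 and HMMR rose at both doses, KIF20A was called at 100 µM alone, and CDC25B fell at both. Both comparisons share the 3 controls, so the repeat of calls is not independent. The changes ran from -0.50 to 0.60 with a median of 0.038, against 0.00087 over all genes. The groups did not overlap in 15 genes with 100 µM above and 4 with it below, against 17.3% and 18.6% of all genes. At a q under 0.05 the authors' deposited table had 5 members higher and 1 lower, against 5.97% and 5.26% of its genes with a q. DESeq2 called 11 higher and 2 lower, against 13.4% and 12.9%. At an unadjusted p under 0.05 edgeR had 14 higher and 3 lower, against 18.2% and 18.4%. The 7 rises became 2 without control replicate 2 or 3 (4.79% and 4.6% of all genes higher), 3 without 50 µM replicate 3 (7.75%), 4 without 100 µM replicate 2 (8.43%) and 11 without 100 µM replicate 3, where 15.2% and 14.6% of all genes were called. The 1 fall became 3 without control replicate 1.

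**Figure D3:**
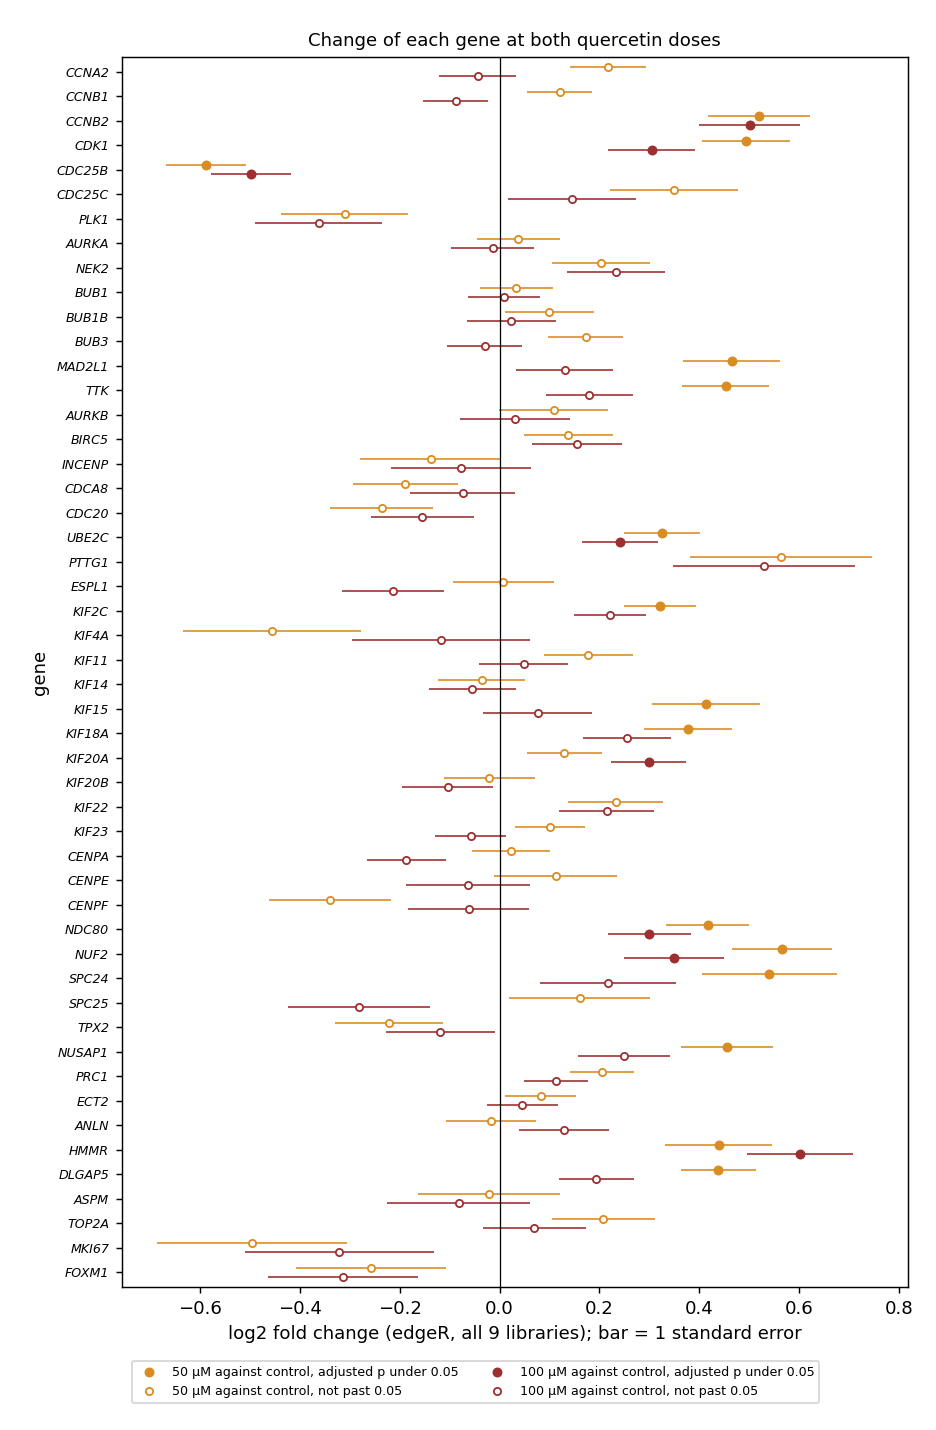
Log2 fold change against control of each of the 50 genes at 50 µM (orange) and 100 µM (red), with bars of 1 standard error; filled circles passed edgeR's adjusted p of 0.05. Of the genes called at 50 µM, NUF2 lies farthest right at 0.57, and CDC25B lies farthest left at both doses, at -0.59 and -0.50.

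Among the cyclins and the CDK1 switch, the B-type cyclin gene CCNB2 and the kinase gene CDK1 rose at both doses and the phosphatase gene CDC25B fell. CCNB2 (gene 9133, chr15:59105146-59133250) stood at 103, 79.1 and 91.2 CPM in control replicates 1, 2 and 3, at 138, 123 and 131 CPM at 50 µM and at 122, 130.4 and 134 CPM at 100 µM. Every treated library was above every control. The rise was 1.43-fold at 50 µM (log2 change 0.52 ± 0.102 SE, edgeR adjusted p = 0.0172) and 1.42-fold at 100 µM (0.50 ± 0.102, edgeR adjusted p = 0.00918), and the call was kept in 12 of 17 alternatives at 50 µM and in all 17 at 100 µM.

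CDK1 (gene 983, chr10:60778331-60794852) stood at 205, 206 and 198 CPM in controls, 312, 252 and 293 CPM at 50 µM and 249.8, 259 and 243 CPM at 100 µM. The treated libraries were again all above the controls, and the doses overlapped. CDK1 rose 1.41-fold at 50 µM (log2 change 0.49 ± 0.088, edgeR adjusted p = 0.0131) and 1.23-fold at 100 µM (0.30 ± 0.0879, edgeR adjusted p = 0.0369). The call was kept in 13 of 17 alternatives at 50 µM and in 6 at 100 µM.

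CDC25B (gene 994, chr20:3786895-3806118), a phosphatase that activates CDK1, was the 1 member that fell. Its levels were 235, 262 and 263 CPM in controls, 163, 172 and 172 CPM at 50 µM and 181, 190.4 and 167 CPM at 100 µM. All 6 treated libraries lay well below the lowest control. It fell 1.5-fold at 50 µM (log2 change -0.59 ± 0.0804, edgeR adjusted p = 0.00554) and 1.41-fold at 100 µM (-0.50 ± 0.0803, edgeR adjusted p = 0.00345). Both calls held in all 17 alternatives, including each library left out in turn.

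The other members of this switch did not pass. CCNB1, the main mitotic cyclin, stood at 161, 154 and 161 CPM in controls, 177, 170.3 and 171 CPM at 50 µM and 149, 146 and 154 CPM at 100 µM. Its 50 µM libraries were just above the controls (log2 change 0.12, edgeR adjusted p = 0.231), and at 100 µM the groups overlapped (-0.09, 0.357). CCNA2, the A-type cyclin of S phase and early mitosis, changed by 0.22 and -0.04 (edgeR adjusted p = 0.0892 and 0.709). CDC25C, another CDK1-activating phosphatase, changed by 0.35 and 0.14 (edgeR adjusted p = 0.0968 and 0.44).

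None of the 3 mitotic kinase genes PLK1, AURKA and NEK2 passed edgeR's test at either dose. Over all genes edgeR called 5.28% higher and 6.31% lower at 50 µM, and 10.7% and 10.3% at 100 µM. At an unadjusted p under 0.05 PLK1 was lower at both doses and NEK2 higher at 100 µM. DESeq2 as run here called PLK1 lower at 100 µM alone. The authors' deposited DESeq2 q for PLK1 was 0.0306 at 50 µM and 0.182 at 100 µM. PLK1, which drives spindle maturation and mitotic entry, stood at 94.6, 125 and 123 CPM in controls, 91.2, 90.4 and 95.3 CPM at 50 µM and 93.9, 97.5 and 75.5 CPM at 100 µM. Control replicate 1 sat among the treated libraries, and the other controls were above all of them. The log2 change was -0.31 ± 0.127 at 50 µM and -0.36 ± 0.127 at 100 µM (edgeR adjusted p = 0.13 and 0.0705). With control replicate 1 and 100 µM replicate 3 both left out, PLK1 passed as lower at both doses (-0.43 and -0.37, edgeR adjusted p = 2.76e-07 and 1.85e-05). Control replicate 1 was its low control, and 28.9% of all genes were then called lower at 50 µM and 24.4% at 100 µM. AURKA, which acts at spindle poles, changed by 0.04 and -0.01, and its groups overlapped at both doses. NEK2, a centrosome-separating kinase, changed by 0.20 and 0.23 without passing (edgeR adjusted p = 0.182 and 0.117).

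In the spindle checkpoint, 2 of 5 genes rose at 50 µM, where 5.28% of all genes were called higher in edgeR. At 100 µM 0 of 5 passed, 0 were past an unadjusted p of 0.05 in edgeR and 0 were called by DESeq2. Over all genes edgeR called 10.7% higher and 10.3% lower at 100 µM, so 0 of 5 does not set these genes apart. MAD2L1, the inhibitor that the checkpoint loads onto CDC20, stood at 125, 107 and 112 CPM in controls, 168, 139 and 167 CPM at 50 µM and 131, 119.6 and 125 CPM at 100 µM. The 50 µM libraries were above all others, and the 100 µM libraries overlapped the controls. MAD2L1 rose 1.38-fold at 50 µM (log2 change 0.46 ± 0.097, edgeR adjusted p = 0.0194), and its change at 100 µM was 0.13. TTK, the kinase that starts checkpoint signalling, stood at 63.7, 60.0 and 63.6 CPM in controls, 95.3, 77.9 and 83.2 CPM at 50 µM and 70.9, 68.5 and 72.7 CPM at 100 µM. The groups of TTK lay in separate ranges, with 100 µM between control and 50 µM. Its rise at 50 µM was 1.37-fold (0.45 ± 0.0867, edgeR adjusted p = 0.0163), and at 100 µM the change of 0.18 did not pass (0.165).

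The other checkpoint genes did not pass. BUB1B, the BubR1 subunit of the checkpoint complex, stood at 124, 123 and 132 CPM in controls, 138, 129.9 and 138 CPM at 50 µM and 141, 131 and 113 CPM at 100 µM, with overlap at both doses. Its log2 changes were 0.10 and 0.02, those of BUB1 were 0.03 and 0.01, and those of BUB3 were 0.17 and -0.03. The edgeR adjusted p of these 3 genes ran from 0.146 (BUB3 at 50 µM) to 0.945 (BUB1 at 100 µM).

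The 4 chromosomal passenger genes, whose products correct faulty attachments, gave 0 calls at either dose in edgeR, adjusted or not, and 0 in DESeq2. Over all genes edgeR called 5.28% higher and 6.31% lower at 50 µM, and 10.7% and 10.3% at 100 µM. A count of 0 in 4 genes therefore does not set them apart. AURKB, the kinase of the complex, stood at 48.4, 52.3 and 50.9 CPM in controls, 55.3, 49.9 and 58.0 CPM at 50 µM and 53.6, 57.6 and 43.5 CPM at 100 µM. These ranges overlapped throughout, and its log2 changes were 0.11 and 0.03 (edgeR adjusted p = 0.516 and 0.866). BIRC5 (survivin) changed by 0.14 and 0.16, the scaffold INCENP by -0.14 and -0.08, and CDCA8 (borealin) by -0.19 and -0.07. In 100 µM replicate 3, INCENP lay 0.55 (log2) under the other libraries of its dose.

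Of the 4 anaphase control genes, UBE2C rose at both doses. UBE2C (gene 11065, chr20:45812644-45816952), the ubiquitin-conjugating enzyme of the anaphase-promoting complex, stood at 106, 99.7 and 107 CPM in controls, 137, 125 and 129.9 CPM at 50 µM and 116, 123 and 131 CPM at 100 µM. All treated libraries were above the controls. The rise was 1.25-fold at 50 µM (log2 change 0.32 ± 0.076, edgeR adjusted p = 0.0274) and 1.18-fold at 100 µM (0.24 ± 0.076, edgeR adjusted p = 0.0489). The call at 100 µM was close to the threshold and was kept in 5 of 17 alternatives.

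PTTG1, which encodes securin, the inhibitor of separase, had a large change and a large spread. It stood at 64.5, 40.5 and 46.5 CPM in controls, 72.4, 70.5 and 81.2 CPM at 50 µM and 62.6, 66.9 and 89.4 CPM at 100 µM. Control replicate 1 was the highest control and 100 µM replicate 3 the highest library of all. The log2 change was 0.56 ± 0.182 at 50 µM and 0.53 ± 0.182 at 100 µM, and neither passed (edgeR adjusted p = 0.0696 and 0.066). The authors' deposited DESeq2 q was 0.00204 at 50 µM and 0.107 at 100 µM. Without both libraries that stood apart PTTG1 passed as higher at both doses (0.78 and 0.58, edgeR adjusted p = 7.49e-10 and 8.59e-07). The libraries left out hold its highest values in their groups, and 28.5% of all genes were then called higher at 50 µM and 24.2% at 100 µM. PTTG1 has close copies in the genome, and no source used here says how reads shared with them were assigned.

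CDC20, the activator that the checkpoint holds back, stood at 80.5, 97.015 and 95.5 CPM in controls, 76.2, 73.0 and 82.5 CPM at 50 µM and 84.6, 87.6 and 73.0 CPM at 100 µM. Control replicate 1 was again the low control, and its level lay inside the treated range. The log2 changes of CDC20 of -0.24 and -0.15 did not pass (edgeR adjusted p = 0.146 and 0.301). Without both libraries that stood apart CDC20 passed as lower at 50 µM (-0.32, edgeR adjusted p = 7.16e-05), where 28.9% of all genes were called lower. ESPL1, which encodes separase, changed by 0.01 and -0.21 without passing.

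Kinetochore genes of the NDC80 complex, the microtubule-binding arm of the kinetochore, rose together at 50 µM for 3 of its 4 subunits. NUF2 (gene 83540, chr1:163321948-163355764) stood at 41.8, 38.5 and 36.7 CPM in controls, 61.4, 52.4 and 59.3 CPM at 50 µM and 46.7, 47.1 and 55.1 CPM at 100 µM. NDC80 (gene 10403, chr18:2571557-2616635) stood at 61.1, 57.0 and 56.4 CPM, 83.2, 71.1 and 78.7 CPM, and 71.9, 74.7 and 68.2 CPM in the same groups. For both genes every treated library was above every control. NUF2 rose 1.48-fold at 50 µM and 1.27-fold at 100 µM (log2 change 0.57 ± 0.1 and 0.35 ± 0.1, edgeR adjusted p = 0.0128 and 0.0361). NDC80 rose 1.33-fold and 1.23-fold (0.42 ± 0.0829 and 0.30 ± 0.083, edgeR adjusted p = 0.0178 and 0.0315). At 100 µM the call of NUF2 was kept in 9 of 17 alternatives and that of NDC80 in 8.

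SPC24, the third subunit called, stood at 12.6, 11.8 and 11.6 CPM in controls, 17.3, 17.4 and 17.7 CPM at 50 µM and 15.6, 15.3 and 10.97 CPM at 100 µM. The 50 µM libraries were tightly grouped above the controls, and at 100 µM replicate 3 lay below them. SPC24 rose 1.45-fold at 50 µM (log2 change 0.54 ± 0.135, edgeR adjusted p = 0.0336), and at 100 µM the change of 0.22 did not pass (0.273) but did without 100 µM replicate 3 (0.37, 0.012). SPC25, its partner, stood at 23.6, 20.8 and 19.8 CPM in controls, 27.6, 20.9 and 23.2 CPM at 50 µM and 19.8, 18.4 and 14.6 CPM at 100 µM. Unlike the other subunits it overlapped the controls at 50 µM. At 100 µM it lay below them, though its highest library (19.784 CPM) was barely under the lowest control (19.831 CPM). Neither change passed (0.16 and -0.28, edgeR adjusted p = 0.451 and 0.183).

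The centromere genes CENPA, CENPE and CENPF were not called at either dose in edgeR. The authors' deposited DESeq2 q for CENPF was 0.000354 at 50 µM. CENPF, a large kinetochore and nuclear matrix protein gene, stood at 161, 141 and 143 CPM in controls, 117, 116 and 119 CPM at 50 µM and 169.7, 139 and 118 CPM at 100 µM. Its 50 µM libraries were below every control (log2 change -0.34 ± 0.121, edgeR adjusted p = 0.092), and the 100 µM libraries spread over both ranges (-0.06). CENPA, the centromeric histone, changed by 0.02 and -0.19, and CENPE, a kinetochore kinesin, by 0.11 and -0.06.

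Among the 10 kinesin genes, 3 rose at 50 µM and 1 at 100 µM, where edgeR called 5.28% and 10.7% of all genes higher. KIF2C, which depolymerises microtubules at centromeres, stood at 70.7, 67.8 and 73.4 CPM in controls, 90.8, 85.5 and 88.6 CPM at 50 µM and 78.5, 86.4 and 82.1 CPM at 100 µM. KIF18A, which dampens chromosome oscillation, stood at 53.4, 52.4 and 51.2 CPM, 76.6, 63.3 and 64.0 CPM, and 63.8, 60.3 and 63.1 CPM. In both genes all treated libraries were above the controls, yet only 50 µM passed. KIF2C rose 1.25-fold at 50 µM (log2 change 0.32 ± 0.0719, edgeR adjusted p = 0.024) and KIF18A 1.3-fold (0.38 ± 0.088, edgeR adjusted p = 0.027), and at 100 µM the changes were 0.22 and 0.25 (edgeR adjusted p = 0.0551 and 0.0667).

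KIF15, a motor that helps hold the spindle bipolar, stood at 21.9, 20.0 and 20.3 CPM in controls, 29.2, 25.2 and 28.5 CPM at 50 µM and 20.9, 19.8 and 24.9 CPM at 100 µM. It was high at 50 µM alone, and the 100 µM libraries overlapped the controls. KIF15 rose 1.33-fold at 50 µM (log2 change 0.41 ± 0.108, edgeR adjusted p = 0.0376), with a change of 0.08 at 100 µM. KIF20A, needed for cytokinesis, stood at 72.2, 66.3 and 73.2 CPM in controls, 80.6, 74.7 and 76.4 CPM at 50 µM and 86.1, 83.2 and 91.1 CPM at 100 µM. Its ranges were stacked without overlap from control to 100 µM. KIF20A rose 1.23-fold at 100 µM (0.30 ± 0.0751, edgeR adjusted p = 0.0221), and the change of 0.13 at 50 µM did not pass (0.258).

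KIF4A, a chromokinesin that shapes chromosome arms and the central spindle, had its values in the other direction at 50 µM. It stood at 218, 269 and 273 CPM in controls, 192, 176 and 187 CPM at 50 µM and 274, 265 and 162 CPM at 100 µM. The 50 µM libraries were below every control, and at 100 µM a pair of libraries matched the higher controls while replicate 3 was the lowest of all 9. The log2 change of -0.46 ± 0.179 at 50 µM did not pass (edgeR adjusted p = 0.116). It did without 100 µM replicate 3 (-0.45, edgeR adjusted p = 0.00303), where 18.2% of all genes were called lower. The authors' deposited DESeq2 q for KIF4A at 50 µM was 9.43e-05. KIF11, the motor that pushes spindle poles apart, stood at 120.2, 133 and 125 CPM in controls, 155, 139 and 134 CPM at 50 µM and 143, 126 and 123 CPM at 100 µM, and its changes of 0.18 and 0.05 did not pass. KIF14, KIF20B, KIF22 and KIF23 had changes from -0.04 (KIF14) to 0.23 (KIF22) at 50 µM and from -0.10 (KIF20B) to 0.21 (KIF22) at 100 µM, with no call.

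Of the 8 spindle assembly and cytokinesis genes, 3 rose at 50 µM and 1 at 100 µM, against 5.28% and 10.7% of all genes called higher in edgeR. HMMR (gene 3161, chr5:163460342-163491941), a spindle-pole protein gene, stood at 38.1, 30.5 and 30.9 CPM in controls, 48.4, 41.8 and 44.6 CPM at 50 µM and 53.5, 48.4 and 49.0 CPM at 100 µM. All treated libraries were above the controls. HMMR rose 1.36-fold at 50 µM (log2 change 0.44 ± 0.106, edgeR adjusted p = 0.0303) and 1.52-fold at 100 µM (0.60 ± 0.106, edgeR adjusted p = 0.0052). The call was kept in 10 of 17 alternatives at 50 µM and in all 17 at 100 µM.

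NUSAP1, which bundles microtubules near chromosomes, stood at 166, 143 and 147 CPM in controls, 215, 200.4 and 210.1 CPM at 50 µM and 170.3, 171 and 201 CPM at 100 µM. DLGAP5, a spindle fibre stabiliser, stood at 81.2, 79.1 and 77.5 CPM, 113, 99.6 and 109 CPM, and 91.9, 86.2 and 93.9 CPM. Both genes were above the controls in every treated library, with 100 µM closer to control. NUSAP1 rose 1.37-fold at 50 µM (log2 change 0.46 ± 0.0919, edgeR adjusted p = 0.0182) and DLGAP5 1.36-fold (0.44 ± 0.0756, edgeR adjusted p = 0.0118), and at 100 µM the changes were 0.25 and 0.19 (edgeR adjusted p = 0.0811 and 0.096).

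TPX2, the activator of AURKA on spindle microtubules, stood at 388, 409 and 419 CPM in controls, 358, 340.1 and 345 CPM at 50 µM and 412, 401 and 308 CPM at 100 µM. The 50 µM libraries were below every control, but the change of -0.22 ± 0.109 did not pass with all libraries (edgeR adjusted p = 0.189). It did without 100 µM replicate 3 (-0.21, edgeR adjusted p = 0.0176), where 18.2% of all genes were called lower. The authors' deposited DESeq2 q for TPX2 at 50 µM was 0.00707. PRC1, which cross-links the central spindle, changed by 0.20 at 50 µM (edgeR adjusted p = 0.0639) and 0.11 at 100 µM, with all treated libraries above the controls. ECT2 and ANLN, of the contractile ring, and ASPM, of the spindle poles, changed by -0.02 to 0.08 at 50 µM and by -0.08 to 0.13 at 100 µM, and none passed.

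TOP2A, MKI67 and FOXM1, which are widely read as proliferation genes, gave 0 calls at either dose in edgeR and 0 in DESeq2 as run here. At an unadjusted p under 0.05 in edgeR only MKI67 was lower, at 50 µM. The authors' deposited DESeq2 q for MKI67 was 0.00771 at 50 µM and 0.463 at 100 µM. Over all genes edgeR called 5.28% higher and 6.31% lower at 50 µM, and 10.7% and 10.3% at 100 µM. A count of 0 in 3 genes therefore does not set them apart. MKI67, which encodes the Ki-67 protein that coats mitotic chromosomes, stood at 209, 343 and 328 CPM in controls, 211, 194 and 219 CPM at 50 µM and 265, 253 and 185 CPM at 100 µM. The other controls were far above control replicate 1, which lay in the 50 µM range. Its change of -0.50 ± 0.19 at 50 µM and -0.32 ± 0.189 at 100 µM did not pass (edgeR adjusted p = 0.11 and 0.247). Without both libraries that stood apart MKI67 passed as lower at both doses (-0.69 and -0.36, edgeR adjusted p = 6.14e-11 and 2.93e-05). That fit drops its low control by design, and 28.9% of all genes were then called lower at 50 µM and 24.4% at 100 µM.

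FOXM1, the transcription factor that activates many genes of this group, stood at 199, 254 and 240.4 CPM in controls, 184, 189.7 and 206 CPM at 50 µM and 200.1, 215 and 143 CPM at 100 µM. Control replicate 1 again lay among the treated libraries. The changes of -0.26 and -0.31 did not pass (edgeR adjusted p = 0.261 and 0.163). Without both libraries that stood apart FOXM1 passed as lower (-0.35 and -0.24, edgeR adjusted p = 8.5e-06 and 0.00265). That fit called 28.9% of all genes lower at 50 µM and 24.4% at 100 µM. TOP2A, the topoisomerase that untangles chromosomes, stood at 549.8, 457 and 456 CPM in controls, 592, 557 and 540.0 CPM at 50 µM and 525, 458 and 551 CPM at 100 µM. Control replicate 1 was inside the treated range for TOP2A too, and changes of 0.21 and 0.07 did not pass (edgeR adjusted p = 0.195 and 0.659).

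**Figure D4:**
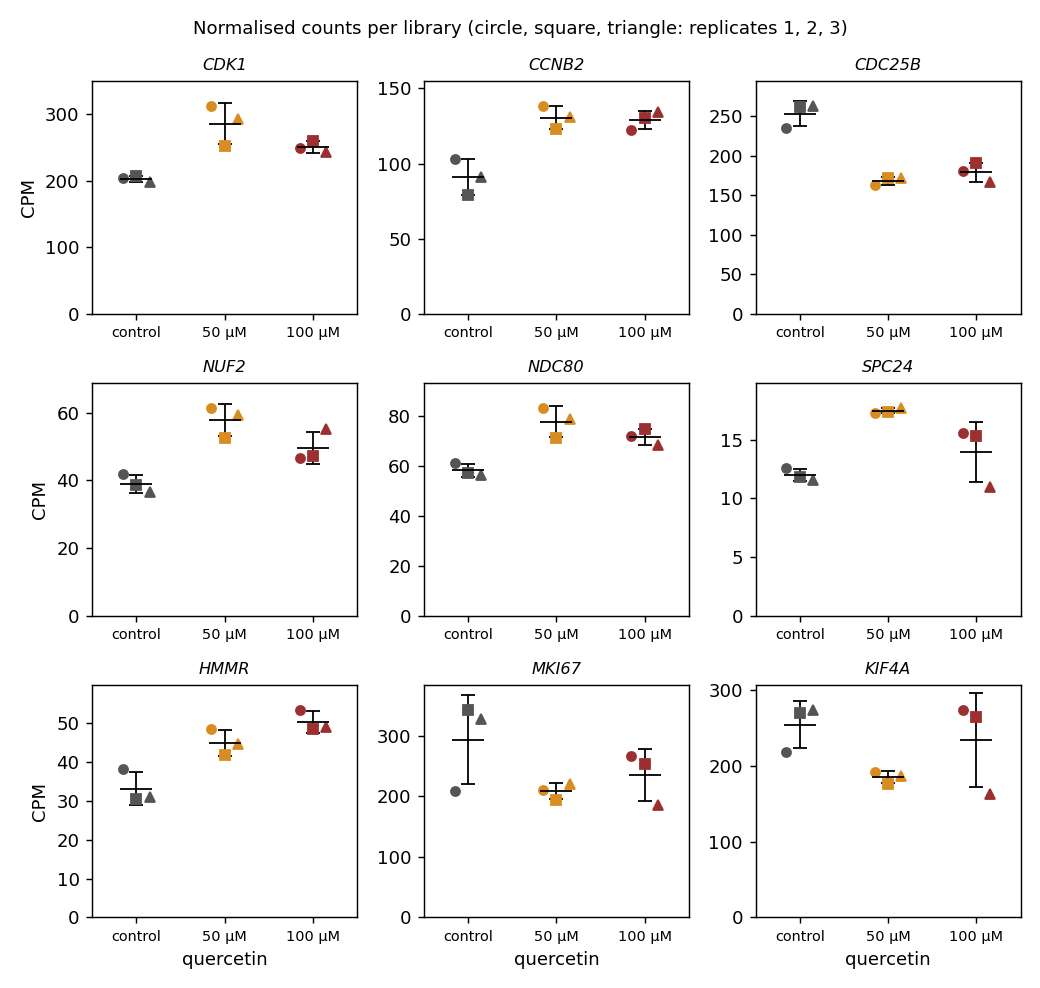
CPM of 9 of the genes in each library (circle, square and triangle are replicates 1, 2 and 3), with the group mean as a line and bars of 1 SD (n = 3), from an axis that starts at 0. CDK1, CCNB2, NUF2, NDC80 and HMMR lie above the controls at both doses and CDC25B below, while MKI67 is low in control replicate 1 and KIF4A is low in 100 µM replicate 3.

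Between the doses, edgeR called 0 of 50 genes higher and 0 lower at 100 than at 50 µM, where 2.25% and 1.89% of all genes were called. At an unadjusted p under 0.05, 2 were higher and 11 lower, against 11.4% and 10.6% of all genes, and DESeq2 called 0 higher and 5 lower (CCNA2, CCNB1, MAD2L1, TTK and DLGAP5), where it called 5.49% and 5.14% of all genes. At a q under 0.05 the authors' deposited table had 0 members in either direction, against 3.16% and 2.7%. In 37 of the 50 the 100 µM level was the lower one, with a median log2 difference of -0.08 against 0.012 over all genes. The 3 libraries at 100 µM lay below all 3 at 50 µM in 13 genes and above in 1, where 14.4% and 13.3% of all genes did. MAD2L1 came closest to the threshold, at -0.33 with a 95% interval of -0.55 to -0.12 (edgeR adjusted p = 0.0822). SPC25 had the largest drop, -0.44 with an interval of -0.76 to -0.12 (edgeR adjusted p = 0.108).

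The genes called at both doses had intervals between the doses that included 0: CCNB2 from -0.24 to 0.21, CDK1 from -0.39 to 0.01, NUF2 from -0.44 to 0.01 and HMMR from -0.07 to 0.40. For the genes called at 1 dose only, 7 of the 9 intervals left out 0 but none passed the adjusted test. These genes were picked by calls in the same fit, which tilts their intervals, so the intervals are no separate support. Over all genes 11.4% were higher and 10.6% lower at 100 than at 50 µM at an unadjusted p under 0.05 in edgeR. Of the 8 called at 50 µM alone, TTK (-0.47 to -0.08), KIF15 (-0.58 to -0.10), SPC24 (-0.62 to -0.02), NUSAP1 (-0.41 to -0.0011), DLGAP5 (-0.41 to -0.08) and MAD2L1 were lower at 100 µM by their intervals. Those of KIF2C (-0.26 to 0.06) and KIF18A (-0.32 to 0.07) included 0. The interval of KIF20A, called at 100 µM alone, was 0.00087 to 0.34. The edgeR adjusted p of these 9 genes ran from 0.0822 (MAD2L1) to 0.455 (KIF18A). Without 100 µM replicate 3 the counts between the doses became 3 higher (KIF4A, CENPF and TPX2) and 10 lower, among them KIF15 at -0.44 (edgeR adjusted p = 0.00785) and MAD2L1 at -0.34 (edgeR adjusted p = 0.0301), where 14.1% and 13.4% of all genes were then called.

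Leaving out both libraries that stood apart raised the calls of all genes as well as of members. At 50 µM, 28 of the 50 genes were then higher and 10 lower, against 28.5% and 28.9% of all genes. The 10 were CDC25B, MKI67, KIF4A, PLK1, FOXM1, CDC20, CENPF, TPX2, CDCA8 and INCENP. At 100 µM, 16 were higher and 4 lower (CDC25B, PLK1, MKI67 and FOXM1), against 24.2% and 24.4% of all genes. All 14 genes that rose at 50 µM and all 7 at 100 µM were among the higher ones, and CDC25B among the lower.

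Transcript length ran along with the direction of change, in this group and in all genes. Each gene's longest protein-coding transcript in GENCODE v29 was used, and all 50 genes had one, from 914 bases (UBE2C) to 12678 bases (MKI67). Across the 50 genes Spearman's rho between length and log2 change was -0.37 at 50 µM and -0.32 at 100 µM, and across 12752 tested genes it was -0.23 and -0.12. For 100 against 50 µM the sign was the other way, at 0.13 in the 50 genes and 0.14 in all tested genes. These are descriptions across genes of the same libraries, and genes are not independent replicates. Of the 25 members at or under the median length of 3344 bases, 10 rose and 0 fell at 50 µM and 7 rose and 0 fell at 100 µM. Of the 25 longer ones, 4 rose and 1 fell, and 0 rose and 1 fell. Over all genes of any length 5.28% rose and 6.31% fell at 50 µM, and 10.7% and 10.3% at 100 µM. How the calls over all genes split by length was not counted, so this split does not set the members apart. The part of length in the changes was not tested.

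**Figure D5:**
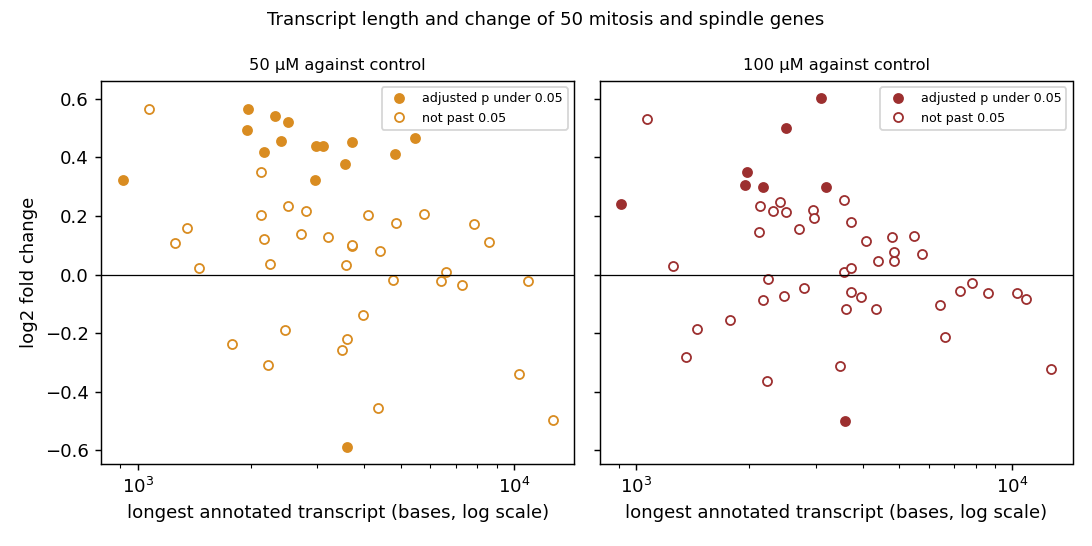
Log2 fold change of each of the 50 genes (y axis) against the length of its longest annotated protein-coding transcript (x axis, log scale, bases), at 50 µM (left) and 100 µM (right); filled circles passed edgeR's adjusted p of 0.05. The genes that rose lie mostly toward the left, and at 100 µM all 7 are at or under the median of 3344 bases.

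Other genes of the mitotic programme, taken from lists drawn up by function, were tested in the same fit. Of all genes tested, edgeR called 5.28% higher and 6.31% lower at 50 µM and 10.7% and 10.3% at 100 µM. Between the doses it called 2.25% and 1.89%. Of 57 further mitosis genes, 4 rose and 0 fell at 50 µM (among them PIMREG at 0.68 and CENPH at 0.39 on the log2 scale), with a median of 0.06. At an unadjusted p under 0.05 edgeR had 16 higher and 6 lower there, against 15.2% and 17% of all genes. DESeq2 called 7 higher and 4 lower, against 9.41% and 10.6%. At 100 µM 2 rose, KIFC1 (0.42) and SGO2 (0.34), and 5 fell, among them ZW10 (-0.42), CDCA3 (-0.32) and ARHGAP11A (-0.32), with a median of -0.07. Between the doses 4 were lower at 100 µM, led by CENPK (-0.48), SPDL1 (-0.40) and MIS12 (-0.40).

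Of 15 genes of the anaphase-promoting complex, its subunits and its inhibitor FBXO5, ANAPC16 rose at both doses (0.60 and 0.37) and ANAPC1 fell at both (-0.40 and -0.50), with ANAPC7 (-0.41) also lower at 100 µM. Of 16 condensin and cohesin genes, which fold and hold chromosomes, 0 rose, 1 fell at 50 µM (WAPL, -0.39) and 6 fell at 100 µM, led by STAG1 (-0.44), PDS5B (-0.42) and NCAPD3 (-0.39). At an unadjusted p under 0.05 edgeR had 0 higher at either dose, with 5 lower at 50 µM and 9 at 100 µM. Over all genes 17% and 18.4% were lower by that measure. DESeq2 called 0 higher, with 3 and 8 lower, against 10.6% and 12.9% of all genes. Medians of the condensin and cohesin genes were -0.17 and -0.27.

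Among regulators of the mitotic genes, and among genes of G1/S and DNA replication, edgeR called more genes lower than higher at 100 µM. The rate of calls across the 12832 genes at that dose was 10.3% down and 10.7% up in edgeR. It was 18.4% and 18.2% at an unadjusted p under 0.05, and 12.9% and 13.4% in DESeq2. Whether these lists differ from those rates was not tested. Of 19 MuvB, E2F and retinoblastoma family genes, 1 fell at 50 µM, the repressor E2F7 (-0.67), and at 100 µM 4 fell, led by E2F8 (-0.75), E2F7 (-0.62) and E2F3 (-0.41), while LIN37 rose (0.42). Medians were -0.10 and -0.33, and at 100 µM 1 was higher and 8 lower at an unadjusted p under 0.05, and DESeq2 called 1 higher and 5 lower. In the list for G1/S and DNA replication, of 35 genes 0 rose and 0 fell at 50 µM in edgeR, with 2 higher and 2 lower at an unadjusted p under 0.05 and 0 calls by DESeq2. At 100 µM 0 rose and 5 fell (22 were lower at an unadjusted p under 0.05 and DESeq2 called 13 lower), led by MCM10 (-0.71), CCNE1 (-0.63) and the helicase subunit MCM6 (-0.57), with medians of -0.03 and -0.34.

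Of 17 tested genes among 19 CDK inhibitors and p53 targets, 2 rose and 1 fell at 50 µM, namely CDKN2D (0.57), CDKN2C (0.47) and MDM2 (-0.32). At 100 µM 4 rose and 0 fell (4 were lower at an unadjusted p under 0.05 and DESeq2 called 1 lower), led by CDKN1C (1.54), the apoptosis gene BBC3 (1.32) and CDKN2D (0.55). Of 11 tubulin genes, 1 rose and 2 fell at 50 µM, and 1 rose and 3 fell at 100 µM. For both lists, edgeR's rate of calls across the 12832 genes was 5.28% up and 6.31% down at 50 µM. At 100 µM that rate was 10.7% up and 10.3% down. The abundant TUBB fell at both doses (-0.46 and -0.44), from 1769 CPM in controls to 1290 and 1306 CPM. TUBA1C fell at 50 µM (-0.51), and TUBG1 (-0.52) and TUBA1B (-0.39) fell at 100 µM. TUBB2B, at 4.98 CPM in controls, rose at both (1.48 and 1.34). Tubulin genes are similar in sequence, so shared reads may be split among them.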

How the data were processed

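RNA-seq of 9 HCCLM3 libraries in 3 groups of 3 was analysed. Per the labels' protocols, the libraries were made from RNA held on oligo(dT) beads and were treated with duplex-specific nuclease, an enzyme that depletes abundant cDNA and so can lower the counts of the most abundant genes. The authors deposited estimated counts (expected counts) and TPM per gene and library for 17492 genes. They also deposited log2 fold changes with q-values of their own comparisons, which came from DESeq2 per the file headers. The submitters' processing notes name HISAT2 2.0.4, Bowtie2 2.2.5, RSEM 1.2.12 and the build GRCh38.p13, with no roles. No source used here says whether counting used strand. A further 18 columns of per-sample values (FPKM and normalised counts) were not used.

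Counts were rounded to whole numbers (26.8% were whole within 1e-06) and filtered with filterByExpr (minimum count 10, minimum total 15, proportion 0.7), which kept 12832 genes and removed 4660 holding 0.042% of the counts. After TMM scaling all 9 libraries entered 1 fit with a term per group, and each contrast was put to the robust, two-sided quasi-likelihood F test of edgeR 4.0.16 (R 4.3.3). P-values were adjusted by Benjamini and Hochberg's method over every gene tested, with a threshold of 0.05. Standard errors were taken as |log2 change| over the root of F, and 95% intervals use the t quantile at the test's degrees of freedom. The common coefficient of variation was 14.4%.

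All 50 members are accounted for, every called member is named, and 13 set members are named always; of other lists, up to 3 called genes in each direction are named, those with the greatest change, except 1 gene that is not reported here. Members, lists and this rule were chosen with earlier results of these data known. Promoters are the first RefSeq window per gene, and lengths are of the longest GENCODE v29 protein-coding transcript. The fit was tested on simulated counts of 12832 genes with 100 changed at each size. For 50 µM against control it called 35 of the 1.5-fold and 80 of the 2-fold changes, for 100 µM against control 24 and 75, and between the doses 34 and 73. Alternatives were DESeq2 1.42.0, RLE factors, no filter, the compared groups alone, a replicate block, each library left out, both libraries that stood apart left out (control replicate 1 and 100 µM replicate 3), and limma 3.58.1 on log2(TPM + 1) and log2(TPM + 0.1).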

Additional observations from a re-analysis of the deposited data

How the results depend on the processing

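No called member changed direction under any alternative run. CDC25B kept its call at both doses, and CCNB2 and HMMR at 100 µM, in all 17 alternatives.

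The counts of called members moved by over 1.5 times in these settings. At 50 µM (14 higher, 1 lower), limma gave 8 higher on log2(TPM + 1) and 9 on log2(TPM + 0.1), and the 2 groups alone gave 5 lower. At 100 µM (7 higher, 1 lower), DESeq2 gave 11 higher and 2 lower, the 2 groups alone 2 higher, and limma 2 higher with either pseudocount. Between the doses (0 and 0), DESeq2 gave 5 lower. Without both libraries that stood apart the counts were 28 higher and 10 lower at 50 µM, 16 and 4 at 100 µM, and 9 and 15 between the doses. The cause was not tested. Calls over all genes moved too. The 2 groups alone gave 1996 higher and 2273 lower at 50 µM (678 and 810 with all groups) and 587 and 437 at 100 µM (1370 and 1322), and limma on log2(TPM + 1) gave 975 higher and 1622 lower at 100 µM.

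Leaving out 1 library at a time gave 0 to 21 higher and 1 to 8 lower at 50 µM, 2 to 11 higher and 1 to 3 lower at 100 µM, and 0 to 3 higher and 0 to 10 lower between the doses; the highest counts came without 100 µM replicate 3, except the 3 lower at 100 µM, which came without control replicate 1. The 0 higher at 50 µM came without control replicate 2 or 3 or 50 µM replicate 1 or 3.

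With the replicate number as a block, 8 members were higher at 50 µM and 3 at 100 µM, with 1 lower at each dose and 0 between the doses; over all genes 1.55% were then higher at 50 µM and 6.96% at 100 µM. The labels do not say that a number marks a shared culture, same-numbered libraries' deviations from their group means correlated from -0.521 to 0.352, and not every library correlated best with its own number.

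With limma on log2(TPM + 1) the members' median at 100 µM turned from 0.038 to -0.0334, while that of all genes moved to -0.0664; without 100 µM replicate 1 the members' median was -0.00402. Of 100 simulated 1.5-fold changes edgeR called 35 at 50 µM and 24 at 100 µM. The changed genes were drawn at random from all genes tested, and among such genes changes of this size were often missed. The share for the members alone was not simulated.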
